A study of Homo sapiens with 6 samples.

Results

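The genes described here encode the proteins that make, bind and act on cyclic AMP (cAMP), and relatives of the same family names. They were measured in MDA-MB-231 cells, an established human triple-negative breast cancer cell line, treated with DMSO or with BRL-50481. They were chosen by a rule on gene names, made with earlier results of these data known. The rule takes in the adenylyl cyclases (ADCY), the catalytic and regulatory subunits of protein kinase A (PRKAC, PRKAR) and the A-kinase anchoring proteins named AKAP. It also takes in the PKI inhibitors, the RAPGEF exchange factors, the CREB, CREB3L and CRTC genes, and CREBBP, CREM, ATF1, GNAS, GNAI1, GNAI2, GNAI3, POPDC3 and PRKX. Of the 15651 genes in the table, 53 met this rule, and 50 of them passed the filter on low values, which asks for 4 or more normalized counts in 3 or more libraries. The other 3, ADCY4, ADCY10 and AKAP3, had normalized counts of at most 9.69 in any library and were not tested.

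cAMP is made from ATP by adenylyl cyclases, which the G protein subunit encoded by GNAS stimulates and those encoded by the GNAI genes inhibit. It binds the regulatory subunits of protein kinase A (PKA) and so frees the catalytic subunits, which PKI proteins inhibit. AKAPs hold PKA at particular places in the cell. Free catalytic subunits phosphorylate CREB1, CREM and ATF1, transcription factors that work with the coactivators CREBBP and CRTC, while the Epac exchange factors (RAPGEF3 and RAPGEF4) and Popeye proteins bind cAMP without PKA. Phosphodiesterases of the PDE7 family, the target of BRL-50481, break cAMP down.

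RNA was sequenced from 3 samples treated with DMSO, the solvent control, and 3 treated with BRL-50481, called biological replicates in the series record, and the comparison asks how the RNA of these genes differs under the inhibitor. All 6 libraries come from the same line, for which the labels name no transgene or other agent, grown in DMEM with fetal bovine serum. The treatment text of the labels gives 50 μM for 72 h, whereas the treatment tag gives 5 μM and 48 h. For the libraries, which kept the strand, oligo-dT selection is named in the labels and depletion of ribosomal RNA in the series record.

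Between 30750573 and 33446984 reads per library fell on genes. Of the line's mesenchymal markers, VIM, CD44, AXL and MSN were each at 28829 normalized counts or more in the mean of either group, while SPARC averaged 14.0 with DMSO and 33.8 with BRL-50481. ESR1, PTPRC and ALB were not analysed here, and PGR was at most 5.61 in the group means. Of the other receptor and epithelial genes, ERBB2 averaged 1677 with DMSO and 1914 with BRL-50481, EPCAM 764 and 682, and CDH1 38.2 and 99.8, so the first 2 were not low in these cells. The 3 markers of other cell types that were measured, PECAM1, CD68 and COL1A1, summed to 4077 to 4484 normalized counts with DMSO and 5685 to 5998 with BRL-50481, none was at 0, and their part in the results was not tested. Fewer cells of a type and less RNA per cell cannot be told apart in such bulk RNA.

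DMSO replicate 1 stood apart from the other DMSO libraries: the chi-square of its read counts over the degrees of freedom was 20.9 against replicate 2 and 13 against replicate 3, while replicates 2 and 3 differed by 3.86. Among the 46 cAMP effector genes that averaged 50 or more normalized counts, its distance from the other DMSO libraries rose with transcript length (Spearman's rho 0.717, across genes of the same libraries, against 0.644 over all 12003 such genes). It held 8 of these 46 genes over 0.25 on the log2 scale above the mean of the others, beside 10.9% of all 12003 such genes. The 8 were led by PRKAR2A (0.61), AKAP13 (0.56), AKAP6 (0.53) and AKAP11 (0.52). The cAMP effector transcripts are long, with a median of 4950 bases against 3163 over all genes in the table. The log2 fold change of BRL-50481 over DMSO also rose with length (Spearman's rho 0.378 over the 46 genes and 0.223 over all 12003), for a cause that was not tested. Genes whose call this library or the length trend changed are given with and without it, the trend being removed by a loess correction of each library on transcript length and GC content. This correction is fitted on the libraries of both groups, so it also removes a length or GC trend that goes with treatment.

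**Figure D1:**
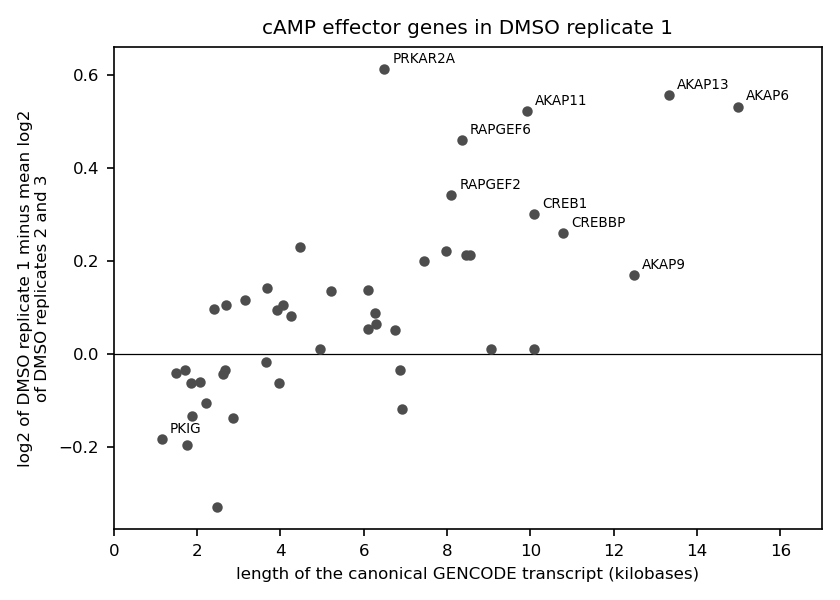
Each point is 1 of 46 cAMP effector genes; the x axis is the length of its canonical transcript in kilobases and the y axis the log2 value of DMSO replicate 1 minus the mean log2 value of DMSO replicates 2 and 3. Long transcripts such as AKAP13, AKAP6 and AKAP11 lie over 0.5 above zero, and PRKAR2A lies highest at 0.61.

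CREB1, CREM and ATF1 bind the cAMP response element, the palindrome TGACGTCA, or the shorter motif TGACG. Both were searched on both strands in the RefSeq promoter windows of GRCh38.p14, from 250 bases before to 50 after each gene's start, which hold 45 of the 53 genes. Only 1 window was searched per gene, so a motif at another start of the same gene would not be seen. The sequences below are shown because the chosen genes include CREB1, CREM and ATF1, whose products bind this element. Most of the genes shown are described in depth further on. The palindrome was in 1 of the 45 windows (2.22%), that of CREB3L2, against 1.98% of all 27305 windows and 3.12% of the 10958 windows of genes tested. It begins 179 bases before the start, and the stretch around it, chr7:138002218-138002305 on the minus strand, reads as follows with the element in capitals:
CREB3L2: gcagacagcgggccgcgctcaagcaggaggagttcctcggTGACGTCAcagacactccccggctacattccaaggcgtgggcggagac

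TGACG, or CGTCA on the opposite strand, was in 16 of the 45 windows (35.6%), including the CREB3L2 palindrome, against 25% of all windows and 33.2% of those of genes tested. Stretches around the motif, in capitals, follow for 4 genes on the plus strand whose values in each library are given further on: PRKACB at chr1:84077934-84077968 (130 bases before the start), PKIB at chr6:122471849-122471883 (57 bases before, 1 of 3 such motifs in its window), AKAP1 at chr17:57084996-57085028 (237 bases before) and PRKAR1A at chr17:68511990-68512024 (5 bases after).
PRKACB: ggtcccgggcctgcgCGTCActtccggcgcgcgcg
PKIB: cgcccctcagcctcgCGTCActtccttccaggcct
AKAP1: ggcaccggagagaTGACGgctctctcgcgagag
PRKAR1A: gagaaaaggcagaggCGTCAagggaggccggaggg
The motif stood beside changes in both directions, since PRKACB and PRKAR1A rose and PKIB and AKAP1 fell. Of the 16 genes with it, 5 rose, 5 fell and 6 did not pass the test, and of the 27 tested genes whose window lacks it, 13 rose, 5 fell and 9 did not pass, where 28.9% of all genes rose and 29.8% fell. A match describes letters in the window and not a bound site.

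In BRL-50481-treated cells, genes of the pathway rose and fell side by side within most of its roles. The scaffold AKAP12 rose 3.77-fold, and the catalytic subunit PRKACB, the regulatory subunit PRKAR1A, the inhibitor PKIA and CREB1 rose between 1.38-fold and 1.61-fold. The mitochondrial anchor AKAP1, the nuclear protein AKAP8L, the inhibitor PKIB and the inhibitory G protein subunit GNAI1 fell to between 0.572 and 0.682 of their DMSO mean. Neither stimulatory step rose: GNAS fell by 0.26 on the log2 scale (by 0.11 with quantile normalization), and no cyclase passed the test upwards.

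Of the 50 genes tested, 19 rose (38%) and 13 fell (26%) at a limma adjusted p-value under 0.05, beside 28.9% and 29.8% of all 15246 genes tested. Of the same 50 genes, 7 rose and 4 fell at that threshold by at least 0.5 on the log2 scale, where 15.1% and 12.1% of all 15246 genes tested did so. All 3 BRL-50481 values lay above all 3 DMSO values in 22 of the 50 genes and below them in 13, where 31.9% and 32.3% of all genes did so. The median log2 fold change was 0.115, beside 0.0148 over all genes, and the median size of the change 0.298, beside 0.332. The share that rose lay above that of all genes and the share that fell below it, a difference that was not tested and is not read as a property of the pathway. Without DMSO replicate 1, 22 rose and 13 fell, beside 4876 (32%) and 4933 (32.4%) of all genes. After the length and GC correction 21 rose (42%) and 17 fell (34%), beside 31.6% and 34.2% of all genes, so that the share that fell was close to that of all genes.

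**Figure D2:**
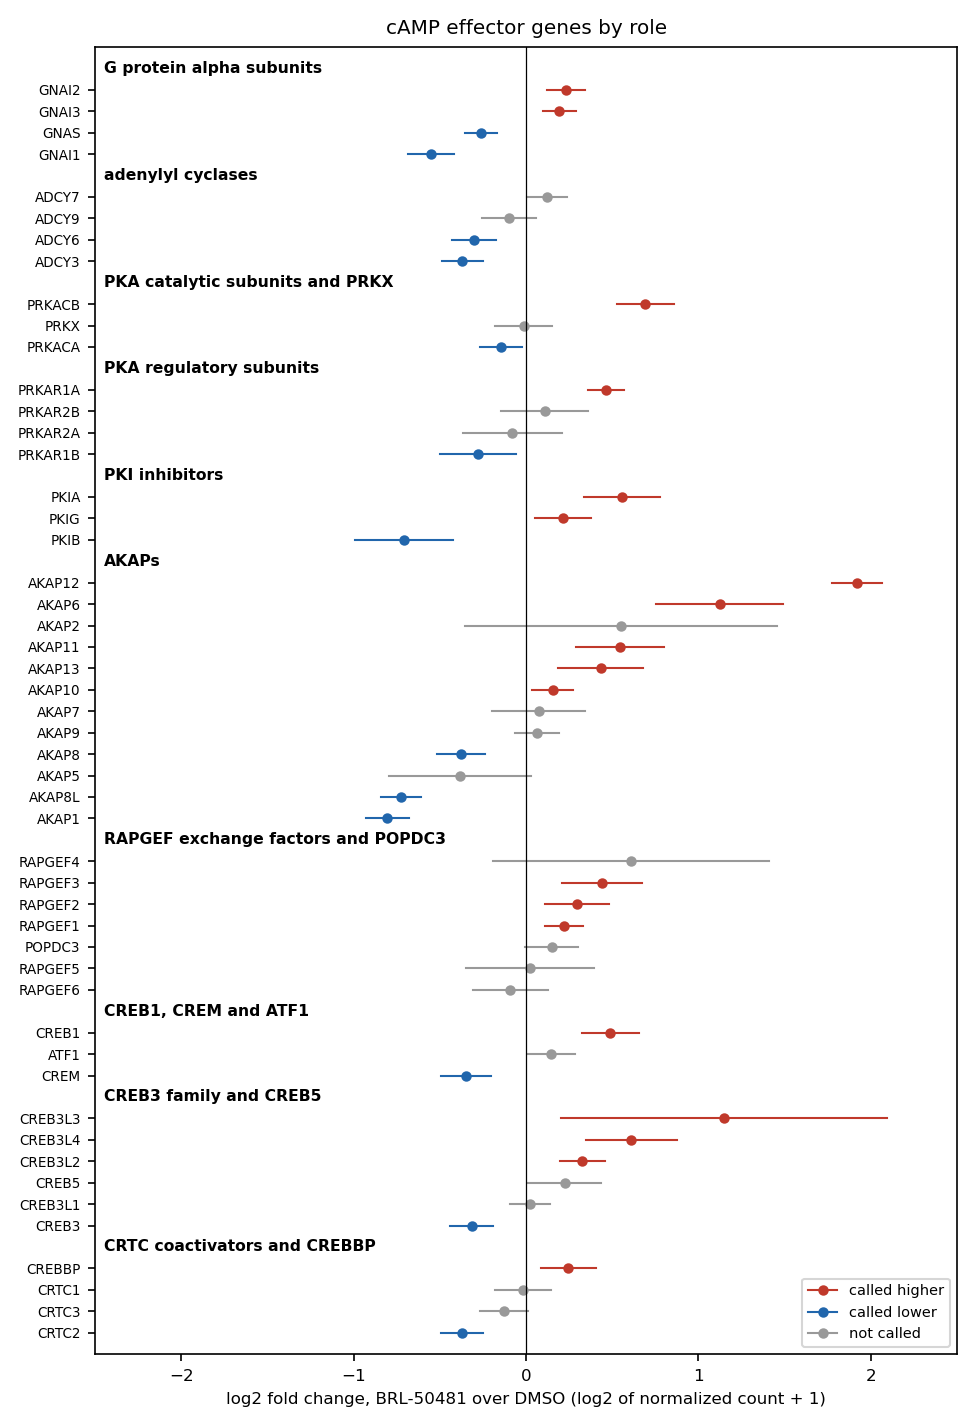
Log2 fold change of BRL-50481 over DMSO (x axis, log2 of the normalized count with 1 added) for the 50 cAMP effector genes tested, grouped by role, with lines for 95% confidence intervals from limma and colour for the call at an adjusted p-value under 0.05. AKAP12 lies farthest to the right at 1.92 and AKAP1 farthest to the left at −0.81, and most role groups hold genes on both sides of 0.

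Among the G protein alpha subunits, the stimulatory GNAS and the inhibitory GNAI1 fell, and the inhibitory GNAI2 and GNAI3 rose. GNAS, the cAMP effector gene with the most counts (chromosome 20 of hg38, 58839718 to 58911192), had normalized counts of 37393.6, 39641.6 and 38516.4 with DMSO and 31486.8, 32256.5 and 32459.2 with BRL-50481. Every treated library was below every control library, for a log2 fold change of −0.26 (SE 0.0430, limma adjusted p = 0.000157). The GNAS value was −0.11 with quantile normalization (adjusted p = 0.018), and −0.17 with the length and GC correction without DMSO replicate 1. The gene has several promoters and first exons, and counts per gene do not separate their products. GNAI1 had 1706.61, 1615.33 and 1778.37 normalized counts with DMSO and 1203.01, 1117.05 and 1159.26 with BRL-50481. The groups were again apart, with a log2 fold change of −0.55 (SE 0.0615, adjusted p = 6.04e-06). GNAI2 rose by 0.23 on the log2 scale (adjusted p = 0.00157) and GNAI3 by 0.19 (adjusted p = 0.00215). The GNAI3 call was lost with the length and GC correction (0.026, adjusted p = 0.664). Per kilobase of transcript, GNAS stood at 4.14 ± 0.0664 times the sum of the 3 GNAI genes with DMSO and 2.99 ± 0.0583 times with BRL-50481 (mean ± SD over 3 libraries).

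None of the 4 adenylyl cyclases tested rose, and ADCY3 and ADCY6 fell. ADCY3, a membrane cyclase first known from olfactory neurons, fell from 1752 ± 33.8 to 1356 ± 22.3 normalized counts (mean ± SD over 3 libraries), a log2 fold change of −0.37 (SE 0.0549, adjusted p = 7.24e-05). ADCY6, a cyclase inhibited by calcium, fell by 0.30 on the log2 scale (SE 0.0586, adjusted p = 0.000643). ADCY7 had the most counts of the cyclases, 2104.49, 2001.28 and 1960.19 with DMSO and 2188.58, 2203.88 and 2208.02 with BRL-50481. Its treated libraries were all higher, but the log2 fold change of 0.12 missed the threshold (SE 0.0531, adjusted p = 0.0631) and passed it only without DMSO replicate 1 (0.15), with quantile normalization (0.19) and with median centring (0.15) among the settings tried. After the length and GC correction the ADCY7 value was 0.045 (adjusted p = 0.298). ADCY9 had overlapping groups and a log2 fold change of −0.10 (adjusted p = 0.261), and −0.025 without DMSO replicate 1. ADCY9 was called lower after the length and GC correction (−0.16), and after that correction without DMSO replicate 1 (−0.11, adjusted p = 0.0293). Per kilobase, ADCY3 held the largest share of the cyclases with DMSO, 30.4% against 27.7% for ADCY7, and ADCY7 the largest with BRL-50481, 33.5% against 26.1%. The soluble cyclase ADCY10 reached 0.992, 0 and 8.17 normalized counts with DMSO and 3.02, 3.02 and 9.69 with BRL-50481. ADCY4 reached 0.992, 1.96 and 3.06 with DMSO and 2.01, 4.03 and 5.82 with BRL-50481, so both are near the limit of detection in either group.

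The 2 catalytic subunits of PKA moved in different directions. PRKACB (chromosome 1, 84078062 to 84238498) had 925.737, 807.173 and 772.227 normalized counts with DMSO and 1407.38, 1341.67 and 1292.05 with BRL-50481. Each treated library exceeded each control, with a log2 fold change of 0.69 (SE 0.0757, adjusted p = 5.00e-06), and 0.77 without DMSO replicate 1. PRKACA had 3378.49, 3236.53 and 3047.03 normalized counts with DMSO and 2828.84, 3062.07 and 2845.8 with BRL-50481. These groups overlapped, and the log2 fold change of −0.14 was close to the threshold (SE 0.0567, adjusted p = 0.0421). The PRKACA call was lost in 10 of 19 other settings, among them without DMSO replicate 2 (−0.14, adjusted p = 0.0684), without BRL-50481 replicate 1 (−0.12, adjusted p = 0.148) or 3 (−0.13, adjusted p = 0.15), with quantile normalization, with DESeq2 and after the length and GC correction (−0.099). PRKX, a kinase closely related to the catalytic subunits, showed a log2 fold change of −0.014 (95% confidence interval −0.18 to 0.15), and −0.12 after the length and GC correction. Per kilobase, PRKACB supplied 14.2%, 13.0% and 13.2% of the catalytic subunit signal in the DMSO libraries and 23.0%, 20.9% and 21.5% in the BRL-50481 libraries.

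Of the regulatory subunits, which hold the catalytic subunits inactive until cAMP binds, only PRKAR1A rose in the test. PRKAR1A (chromosome 17, 68511780 to 68551319) had 7199.51, 6634.69 and 6966.39 normalized counts with DMSO and 9883.84, 9522.64 and 9295.38 with BRL-50481. The groups were well apart, with a log2 fold change of 0.46 (SE 0.0485, adjusted p = 3.37e-06), and 0.40 after the length and GC correction. PRKAR1B fell by 0.28 on the log2 scale (SE 0.102, adjusted p = 0.0298), with overlapping groups, and by 0.18 after the length and GC correction. The PRKAR1B call was lost with a prior variance without a trend, and without DMSO replicate 2 (−0.20) or 3 (−0.25) or BRL-50481 replicate 1 (−0.24) or 2 (−0.29). PRKAR2A had 1618.3, 1008.97 and 1108.29 normalized counts with DMSO and 1071.14, 1155.33 and 1237.77 with BRL-50481. DMSO replicate 1 alone lay above the treated range, and the log2 fold change of −0.08 (SE 0.133, adjusted p = 0.627) became 0.12 (adjusted p = 0.0897) without it. After the length and GC correction the PRKAR2A value was −0.20 (adjusted p = 0.0826). PRKAR2B had overlapping groups and a log2 fold change of 0.11 (adjusted p = 0.445). Per kilobase, PRKAR1A made up 78.4% ± 0.551 of the regulatory subunit signal with DMSO and 84.8% ± 0.973 with BRL-50481 (mean ± SD over 3 libraries). The sum of the regulatory subunits over that of the catalytic subunits was 1.49, 1.44 and 1.59 in the DMSO libraries and 1.99, 1.84 and 1.94 in the BRL-50481 libraries.

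The PKI genes encode small proteins that bind and block free catalytic subunits, and they split as well. PKIA had 262.937, 243.915 and 309.504 normalized counts with DMSO and 410.736, 404.919 and 382.865 with BRL-50481. It rose in every treated library relative to every control, by 0.56 on the log2 scale (SE 0.102, adjusted p = 0.000402). PKIB had 143.871, 138.121 and 157.306 normalized counts with DMSO and 89.597, 94.682 and 83.358 with BRL-50481. It was lower in all treated libraries, with a log2 fold change of −0.71 (SE 0.132, adjusted p = 0.000456). PKIG, by far the most abundant of the 3 per kilobase with 85.8% of their signal with DMSO and 87.7% with BRL-50481, had 992.215, 1211.74 and 1047 normalized counts with DMSO and 1233.22, 1266.13 and 1260.06 with BRL-50481. The groups did not overlap, and the log2 fold change was 0.21 (SE 0.0748, adjusted p = 0.0249). The PKIG call was lost with a prior variance without a trend, and without DMSO replicate 3 (0.19) or BRL-50481 replicate 1 (0.23), 2 (0.21) or 3 (0.21).

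**Figure D3:**
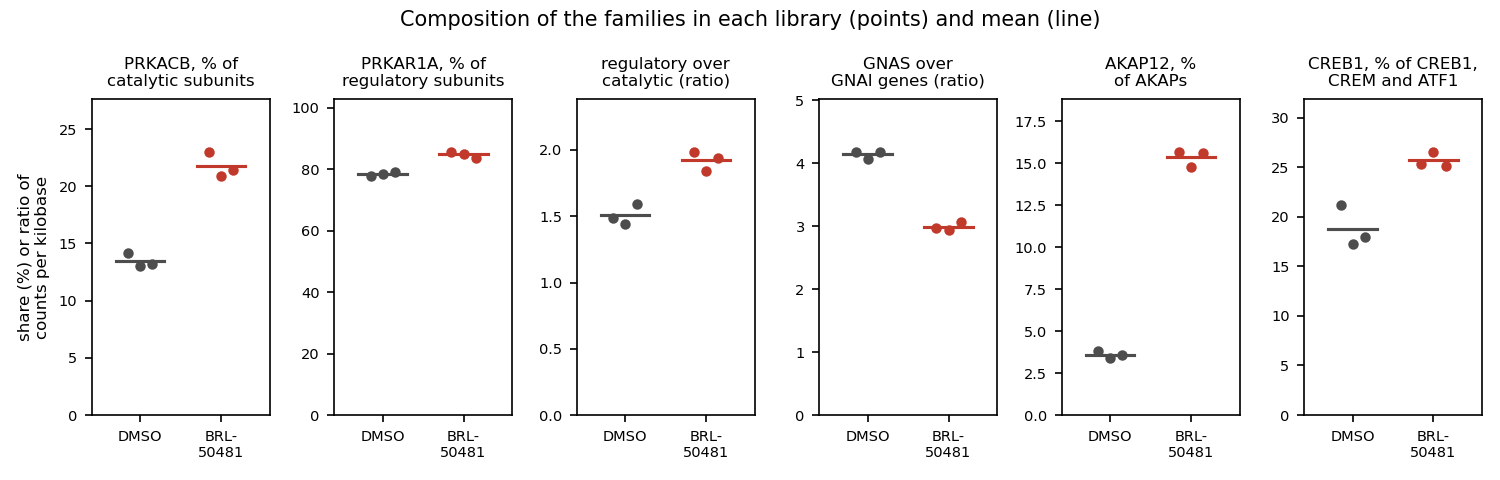
Shares (%) or ratios of normalized counts per kilobase of transcript within gene families, with 1 point per library and a line at the group mean. In all 6 panels the 3 DMSO and 3 BRL-50481 libraries do not overlap; the AKAP12 share of the AKAPs goes from 3.59% to 15.4% and the ratio of GNAS to the GNAI genes from 4.14 to 2.99.

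The shares and ratios describe these libraries, and no test was run on them, since 2-sided exact permutation of 3 against 3 libraries cannot give a p-value under 0.1. They use the length of 1 canonical transcript per gene, which need not be the form the cells make.

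The AKAPs, which tether PKA to organelles and membranes, held the largest changes in either direction. Of the 12 tested, 5 rose, 3 fell and 4 did not pass the test, where 28.9% of all genes rose and 29.8% fell. AKAP12 (chromosome 6, 151239967 to 151358559), a scaffold at the plasma membrane that also binds protein kinase C, had 1376.2, 1142.19 and 1234.95 normalized counts with DMSO and 4832.19, 4592.1 and 4733.95 with BRL-50481. The lowest treated library was over 3 times the highest control, with a log2 fold change of 1.92 (SE 0.0664, adjusted p = 5.09e-10), and only 135 of the 15246 genes had a larger one. The AKAP12 value was 1.79 after the length and GC correction and 1.99 without DMSO replicate 1. AKAP6, an anchor at the nuclear envelope of muscle cells and neurons, had 130.972, 100.897 and 80.696 normalized counts with DMSO and 190.268, 247.786 and 237.473 with BRL-50481. Its groups were apart at low levels, with a log2 fold change of 1.12 (SE 0.170, adjusted p = 8.67e-05), and 0.87 after the length and GC correction.

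AKAP11, which binds PKA and glycogen synthase kinase, had 2524.2, 1612.39 and 1915.25 normalized counts with DMSO and 2920.46, 2992.57 and 2770.2 with BRL-50481. All treated libraries were higher, DMSO replicate 1 coming closest to them, and the log2 fold change was 0.54 (SE 0.117, adjusted p = 0.00135). It was 0.72 without DMSO replicate 1 and 0.36 after the length and GC correction (adjusted p = 0.000244). AKAP13, an anchor that also activates RhoA, rose by 0.43 on the log2 scale (SE 0.114, adjusted p = 0.00527) from 3221.72, 2148.22 and 2233.94 normalized counts with DMSO. Its treated libraries, at 3372.47, 3374.32 and 3343.04, were higher than all controls and much closer to each other. The AKAP13 call was lost with a prior variance without a trend (adjusted p = 0.0717) and with DESeq2 (adjusted p = 0.0636), and the value was 0.24 after the length and GC correction. AKAP10 rose by 0.16 (adjusted p = 0.0277), a call lost without DMSO replicate 2 (0.13) or 3 (0.15) or BRL-50481 replicate 1 (0.16), 2 (0.16) or 3 (0.15).

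AKAP1 (chromosome 17, 57085092 to 57121346), which anchors PKA at the outer mitochondrial membrane, had 4811.25, 4374.8 and 4646.64 normalized counts with DMSO and 2506.7, 2784.07 and 2625.77 with BRL-50481. The treated libraries were all far below the controls, with a log2 fold change of −0.81 (SE 0.0568, adjusted p = 1.15e-07). AKAP8L, a nuclear protein related to AKAP8, had 2792.09, 2909.35 and 2912.19 normalized counts with DMSO and 1777.84, 1760.69 and 1672.97 with BRL-50481. It was also lower in every treated library, with a log2 fold change of −0.72 (SE 0.0532, adjusted p = 1.57e-07). AKAP8, its neighbour on chromosome 19 and a nuclear anchor, fell by 0.38 on the log2 scale (SE 0.0649, adjusted p = 0.000245).

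The other AKAPs were not called as tested here, and some were under other settings. AKAP9, an anchor at the Golgi apparatus and centrosome, gave a log2 fold change of 0.063 (adjusted p = 0.376), which became 0.12 and was called without DMSO replicate 1 (adjusted p = 0.0207). After the length and GC correction, AKAP9 was called in the other direction (−0.16, adjusted p = 0.00304). AKAP5, a plasma membrane anchor, was lower in every treated library (log2 fold change −0.38, adjusted p = 0.102). AKAP5 was called lower with quantile normalization (−0.58, adjusted p = 0.0185), with a prior variance without a trend (adjusted p = 0.0254) and after the length and GC correction (−0.51, adjusted p = 0.0281). AKAP7 had overlapping groups (0.073, adjusted p = 0.638). AKAP2 stood at 9.36 ± 3.92 normalized counts with DMSO and 13.6 ± 3.52 with BRL-50481 (mean ± SD over 3 libraries) and is uncertain, since RefSeq lists that name as an older symbol of a fused gene, PALM2AKAP2. AKAP3, known from sperm, had 0, 0.98 and 0 normalized counts with DMSO and 5.03, 4.03 and 3.88 with BRL-50481. Per kilobase, AKAP8L, AKAP1 and AKAP10 led the family with DMSO with 33.7%, 28.7% and 11.0% of its signal. In BRL-50481, AKAP8L held 23.0%, AKAP1 18.6%, AKAP12 15.4% and AKAP10 13.8%.

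**Figure D4:**
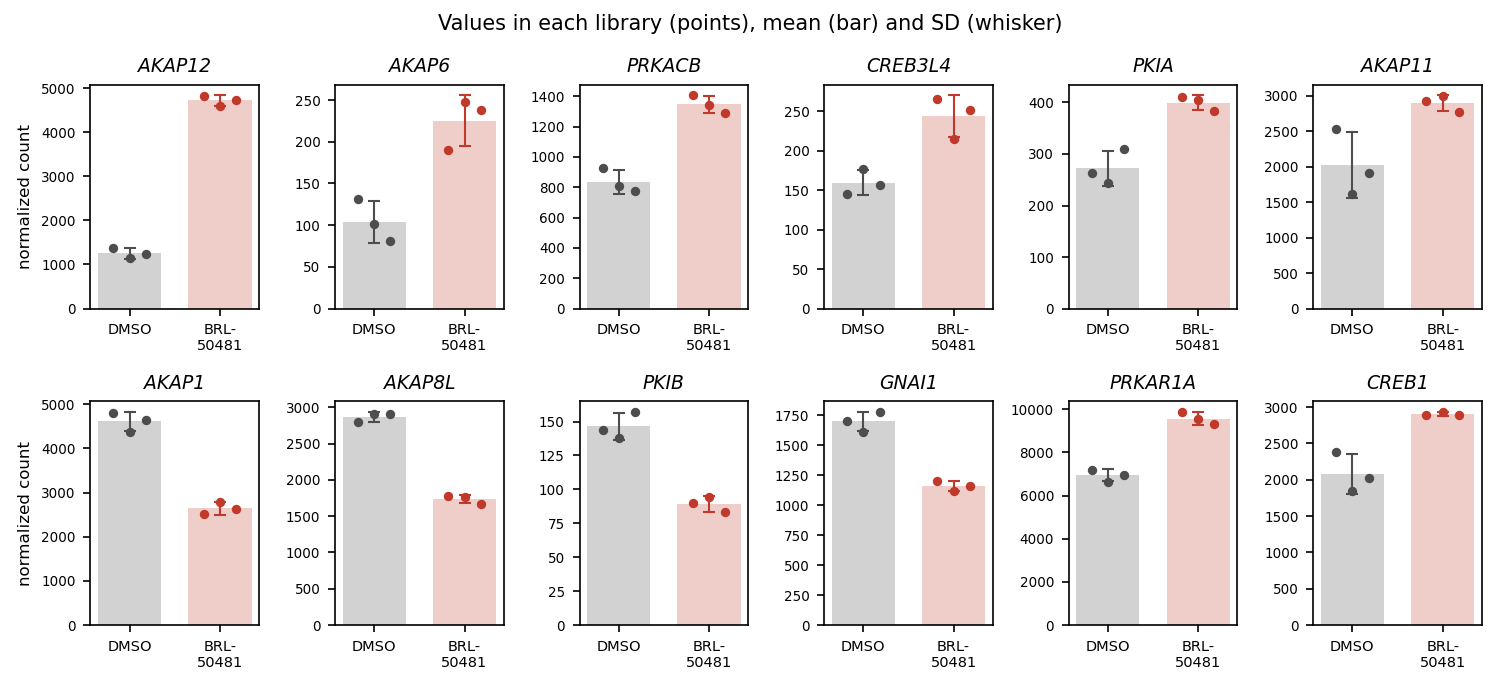
Normalized counts (y axis, from 0) of 12 cAMP effector genes in each library, with points for libraries, bars for the mean and whiskers for the SD of 3 DMSO and 3 BRL-50481 libraries. In each panel the 2 groups do not overlap; the upper row holds 6 genes that rose, and the lower row 4 that fell (AKAP1, AKAP8L, PKIB, GNAI1) and 2 that rose (PRKAR1A, CREB1).

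Of the RAPGEF genes and POPDC3, 3 of 7 rose and none fell, where 28.9% and 29.8% of all genes did, a tally that POPDC3 and RAPGEF6 change under the length and GC correction. RAPGEF1, an exchange factor for Rap that acts below tyrosine kinases and does not bind cAMP, had 4122.65, 4052.52 and 3908.12 normalized counts with DMSO and 4449.64, 4823.77 and 4788.23 with BRL-50481. The treated libraries were all higher, by 0.22 on the log2 scale (SE 0.0511, adjusted p = 0.00249). RAPGEF3, which encodes the cAMP sensor Epac, rose from 217 ± 6.0 to 296 ± 34.5 normalized counts (mean ± SD over 3 libraries), a log2 fold change of 0.44 (SE 0.108, adjusted p = 0.00345). RAPGEF2 rose by 0.30 (adjusted p = 0.00903), a call lost with a prior variance without a trend (adjusted p = 0.0684), with 0.17 after the length and GC correction. The second Epac gene, RAPGEF4, was low at 19.9 ± 6.69 normalized counts with DMSO and 31.8 ± 14.1 with BRL-50481 (mean ± SD over 3 libraries). Its log2 fold change of 0.61 missed the threshold (adjusted p = 0.176) and passed it without BRL-50481 replicate 1 (0.98, adjusted p = 0.0385), while the value was 0.31 without BRL-50481 replicate 2 or DMSO replicate 3. RAPGEF5 (0.020) and RAPGEF6 (−0.091), exchange factors of the same family, had overlapping groups. RAPGEF6 was called lower after the length and GC correction (−0.24, adjusted p = 0.00254) and had a value of 0.062 without DMSO replicate 1. With that correction without DMSO replicate 1, RAPGEF6 was also called lower (−0.16, adjusted p = 0.00267). POPDC3, a Popeye protein of the membrane that binds cAMP, was higher in every treated library with a log2 fold change of 0.15 (adjusted p = 0.0876). It was called after the length and GC correction (0.18, adjusted p = 0.00945), with quantile normalization (0.19, adjusted p = 0.0332) and with median centring (0.18, adjusted p = 0.0467).

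The transcription factors that PKA phosphorylates also parted. CREB1 (chromosome 2, 207529737 to 207605988) had 2381.32, 1844.55 and 2024.54 normalized counts with DMSO and 2897.3, 2937.17 and 2888.45 with BRL-50481. The treated libraries agreed within 50 counts and all exceeded the controls, with a log2 fold change of 0.49 (SE 0.0773, adjusted p = 0.000124). The CREB1 value was 0.59 without DMSO replicate 1 and 0.30 after the length and GC correction (adjusted p = 7.28e-06). CREM, which encodes activators and, from an internal promoter, the repressor ICER, fell from 1334 ± 75.7 to 1047 ± 52.9 normalized counts (mean ± SD over 3 libraries), a log2 fold change of −0.35 (SE 0.0672, adjusted p = 0.000602). Counts per gene do not show which CREM form fell. ATF1 was higher in every treated library with a log2 fold change of 0.15 that missed the threshold (adjusted p = 0.0630), and passed it without DMSO replicate 1 (0.18, adjusted p = 0.0106), after the length and GC correction (0.15, adjusted p = 0.0157), with quantile normalization (0.20, adjusted p = 0.0177) and with median centring (0.18, adjusted p = 0.0293). Per kilobase, CREB1 made up 21.15%, 17.27% and 17.98% of the 3 genes' signal in the DMSO libraries and 25.37%, 26.58% and 25.1% in the BRL-50481 libraries.

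Among the coactivators, CREBBP, a histone acetyltransferase recruited by phosphorylated CREB, had 2091.59, 1700.55 and 1794.71 normalized counts with DMSO and 2127.17, 2180.72 and 2290.4 with BRL-50481. The groups were apart by a narrow gap to DMSO replicate 1, with a log2 fold change of 0.24 (SE 0.0730, adjusted p = 0.0111). The CREBBP value was 0.13 after the length and GC correction (adjusted p = 0.0231), and the call was lost with a prior variance without a trend (adjusted p = 0.0666) and without BRL-50481 replicate 3 (0.22, adjusted p = 0.0572). CRTC2, a coactivator that salt-inducible kinases keep in the cytoplasm, fell from 1821 ± 72.7 to 1406 ± 25.5 normalized counts (mean ± SD over 3 libraries), a log2 fold change of −0.37 (SE 0.0568, adjusted p = 9.27e-05). CRTC3 was lower in every treated library without passing the test (−0.13, adjusted p = 0.109), with −0.082 without DMSO replicate 1. CRTC3 passed it after the length and GC correction (−0.18, adjusted p = 0.0039), and after that correction without DMSO replicate 1 (−0.16, adjusted p = 0.00861). CRTC1 had a log2 fold change of −0.021 (95% confidence interval −0.18 to 0.14).

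The CREB3 family encodes membrane-bound factors that are cut free at the Golgi apparatus, several of them under stress of the endoplasmic reticulum. CREB3L2, whose promoter sequence with the palindrome is printed above, had 3494.58, 2978.9 and 3109.34 normalized counts with DMSO and 4067.09, 3954.5 and 3960.47 with BRL-50481. All treated libraries were higher, with a log2 fold change of 0.33 (SE 0.0604, adjusted p = 0.000451), and 0.20 after the length and GC correction. CREB3L4 had 144.863, 176.324 and 156.284 normalized counts with DMSO and 265.77, 214.546 and 251.043 with BRL-50481. It was also higher in every treated library, with a log2 fold change of 0.61 (SE 0.122, adjusted p = 0.00079). CREB3 itself fell by 0.32 on the log2 scale (SE 0.0580, adjusted p = 0.000417), and by 0.21 with the length and GC correction without DMSO replicate 1. CREB3L1 had overlapping groups (0.021, adjusted p = 0.758) and was called after the length and GC correction (0.097, adjusted p = 0.0366). CREB3L1 was also called after that correction without DMSO replicate 1 (0.13, adjusted p = 0.00213), but not after it with the replicate block (adjusted p = 0.0506). CREB3L3, known from liver and intestine, was called at a very low level, 5.29 ± 2.40 normalized counts with DMSO and 12.3 ± 0.745 with BRL-50481 (mean ± SD over 3 libraries). Its log2 fold change of 1.15 (adjusted p = 0.0378) was not called in 8 of 18 other settings: quantile normalization, DESeq2, the replicate block (1.15, adjusted p = 0.0509), and without DMSO replicate 1 (1.15) or 3 (0.87) or BRL-50481 replicate 1 (1.10), 2 (1.16) or 3 (1.18). CREB5, a factor related to ATF2, had overlapping groups and a log2 fold change of 0.22 (adjusted p = 0.0659), called without DMSO replicate 1 (0.29, adjusted p = 0.00258) and with median centring (0.25, adjusted p = 0.0395). The CREB5 value was 0.11 without DMSO replicate 2 and 0.069 after the length and GC correction (adjusted p = 0.426).

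Further genes of the pathway, outside the choice of cAMP effector genes, were counted by lists, beside shares over all genes of 28.9% that rose and 29.8% that fell. The lists were chosen with earlier results of these data known, so their counts beside these shares are descriptions and not tests. The phosphodiesterases and CREB-induced genes named below were picked after their values were seen. Of the 13 cAMP phosphodiesterases tested, 9 rose and 4 fell, with a median log2 fold change of 0.574 beside 0.0148 over all genes. The largest rise was that of PDE11A (1.45, adjusted p = 4.46e-06), PDE4D rose from 914 ± 78.6 to 1685 ± 47.4 normalized counts (mean ± SD over 3 libraries), and of the 2 genes of the PDE7 family PDE7A fell (−0.45, adjusted p = 0.00199) and PDE7B rose (1.02, adjusted p = 3.58e-06). Of 19 genes known to be induced through cAMP and CREB, 2 rose, 14 fell and 3 did not pass the test, with a median of −0.54. FOSB fell by 2.82, FOS by 1.44, DUSP1 by 1.26 and NR4A1 by 1.22 on the log2 scale, the largest falls of the list. EGR1 (0.29, adjusted p = 0.000124) and AREG (0.19, adjusted p = 0.0156) rose. NR4A2 (−0.16), VGF (0.20) and BDNF (−0.075) did not pass the test. Of the kinases that phosphorylate CRTC proteins, SIK1 (−0.31, adjusted p = 0.0499) and SIK2 (−0.35, adjusted p = 0.000537) fell and SIK3 rose (0.30, adjusted p = 0.00211). EP300, the relative of CREBBP, rose by 0.44 (adjusted p = 0.00127), and ATF2 and ATF7 rose by 0.34 and 0.33.

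Of 10 anchoring proteins with other names, 5 rose, 3 fell and 2 did not pass the test, with a median of 0.0202. Of all genes, 28.9% rose and 29.8% fell. EZR, which links membranes to actin, rose by 0.14 on the log2 scale (adjusted p = 0.0131), and ACBD3, an anchor at the Golgi apparatus, fell by 0.23 (adjusted p = 0.0019). Of 10 other G protein alpha subunits and RIC8 exchange factors, 2 rose and 4 fell, with a median of 0.0378. GNAL, the relative of GNAS that also stimulates cyclases, fell from 133 ± 9.65 to 51.0 ± 10.2 normalized counts (mean ± SD over 3 libraries), and RIC8A, a chaperone of G protein alpha subunits, fell by 0.43 (adjusted p = 1.15e-05). Of 8 other cyclic nucleotide effectors tested, 2 rose and 3 fell, with a median of 0.381. The genes HCN2 (−1.08) and HCN3 (−0.97), for channels that cyclic nucleotides modulate, fell, and PRKG2, a kinase activated by cyclic GMP, rose from 36.9 ± 7.82 to 115 ± 34.0 normalized counts (mean ± SD over 3 libraries; log2 fold change 1.59, adjusted p = 4.45e-05).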

How the data were processed

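RNA of 3 DMSO and 3 BRL-50481 libraries was compared, grouped by the labels. By the study's Methods, STAR 2.7.1a placed the single-end reads (76 bases) on hg38, htseq-count with the reverse strand setting assigned them to UCSC genes, and DESeq2 1.28 gave each library's size factor. The signal that the authors deposited, called the normalized count, is a gene's reads over that factor. The table also holds the authors' mean, log2 fold change, standard error and p-values, which were not used.

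In each library, 100% of the values were a whole number of times what 1 read is worth there (0.9693 to 1.0215, tolerance 0.001). Reads were therefore recovered for the count-based tests, edgeR and DESeq2, which also estimate the spread between libraries. An interval from the reads of 1 library would cover counting error only. Log2 values of the normalized count with a pseudocount of 1 were tested with limma 3.58.1 in R 4.3.3 (lmFit, eBayes with a trend on mean expression), with group as the only term, over the genes that reached 4 normalized counts in 3 or more libraries. The threshold for a call was 0.05 on p-values adjusted by Benjamini-Hochberg across all 15246 genes tested. A fold change on this scale understates the change of low genes. The p-values weigh the difference between the groups against the spread between these samples, which eBayes draws toward a trend across genes. The test was run on simulated data before it was used.

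The genes and lists were chosen with earlier results of these data known. The phosphodiesterases and the genes induced through cAMP and CREB were planned as counts and medians only. Their named genes were added after their values were seen. Values in every library are given for the gene with most counts in each role, for called genes with no overlap between the groups, an absolute log2 fold change of at least 0.5 and a mean of at least 20, and for CREB1, PRKACA, PRKACB, PRKAR1A, PRKAR2A and GNAS; those of AKAP13, ADCY4, ADCY10 and AKAP3 were added after their values were seen. Transcript lengths, GC content and positions came from the canonical GENCODE transcripts of hg38; 14974 genes (95.7%) and all 53 genes described matched, and GENCODE exons of other genes on the same strand overlap ADCY4, AKAP13, GNAI3, PKIB, PRKACA, PRKAR1A, PRKX and RAPGEF6.

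The 19 other settings were a pseudocount of 0.5 or 4, a filter at a mean of 20 or none, quantile normalization, median centring, eBayes without a trend, edgeR 4.0.16 (quasi-likelihood, TMM), DESeq2 1.42.0, the replicate number as a block, a loess correction of each library on length and GC content (span 0.5) with and without the block, leaving out each library, and, chosen after seeing the data, the correction without DMSO replicate 1.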

Additional observations from a re-analysis of the deposited data

How the results depend on the processing

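The counts of cAMP effector genes stayed within 1.5 times their values in every setting: 15 to 23 rose (19 as reported) and 11 to 17 fell (13 as reported), and leaving out 1 library gave 15 to 22 and 11 to 13. Of the 50 genes, 25 had the same direction and call in all settings that gave them a value, 9 called genes lost their call in at least 1, and 11 others gained one; the cause was not tested. Directions changed for 9 genes, of which GNAI3 alone was called as reported. With the length and GC correction, with and without the replicate block, AKAP9 was −0.16 and RAPGEF5 −0.11, and with that correction without DMSO replicate 1, AKAP9 was −0.20, GNAI3 −0.047 and RAPGEF5 −0.21. With quantile normalization, AKAP7 was −0.041 and RAPGEF5 −0.14, and with median centring, CRTC1 was 0.0095 and PRKX 0.016. Over the fits that left out 1 library each, AKAP7 ranged from −0.0037 (without DMSO replicate 2) to 0.11, CREB3L1 from −0.0083 (without BRL-50481 replicate 2) to 0.056, PRKAR2A from −0.22 to 0.12 (without DMSO replicate 1), RAPGEF6 from −0.18 to 0.062 (without DMSO replicate 1), PRKX from −0.046 to 0.032 (without DMSO replicate 1, and 0.0092 without BRL-50481 replicate 1) and RAPGEF5 from −0.041 (without DMSO replicate 2, with −0.030 without BRL-50481 replicate 2 and −0.020 without DMSO replicate 1) to 0.12.

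The replicate numbers were not taken as pairs: same-numbered libraries had correlations of their deviations from the group means of 0.121, 0.104 and 0.051 over 12251 genes, not all above 0.1. With the replicate block, 18 cAMP effector genes rose and 13 fell, beside 4440 and 4589 of all genes, and CREB3L3 lost its call (1.15, adjusted p = 0.0509). The 3 genes below the filter and those under about 20 normalized counts (AKAP2, CREB3L3) are limited by depth.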
